A study of Homo sapiens with 6 samples.

Results

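The plasminogen activator system was followed here through 8 genes, chosen by symbol as the activators PLAU and PLAT, the receptor PLAUR, the inhibitors SERPINE2 and SERPINB2, the cell surface pair ANXA2 and S100A10, and F3, which starts the opposing clotting cascade. All 8 had a row among the 60835 distinct symbols counted. The cells were PANC-1, an established line of pancreatic epithelioid carcinoma, with SMAD4 knocked out in every library. They then received SMAD4 with the R272K change (3 libraries) or wild-type (WT) SMAD4 (3 libraries), and were collected on day 3. SMAD4 carries TGF-β signals to DNA together with SMAD2 or SMAD3, and the series concerns its methylation on arginine by PRMT1. The sources used here do not give the construct, its promoter or whether the knockout line was 1 clone, and knockout cells without SMAD4 were not analysed here. Whether replicates came from separate cultures is not in the labels, so the spread behind each p-value may be technical.

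In this system, secreted urokinase and tissue-type plasminogen activator cut the circulating zymogen plasminogen into plasmin, a broad protease that dissolves fibrin and matrix and can activate other proteases and growth factors. Urokinase is held at the cell surface by its receptor, and serpins block the activators by forming covalent complexes with them. Carcinoma cells, including those of the pancreas, often make urokinase and its receptor, and the system is widely studied in invasion. Several of its genes are known to respond to TGF-β in other cells.

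Between 14776148 and 17706201 counts were assigned per library. SMAD4 itself stood at 43.3 ± 2.56 CPM in R272K libraries and 88.7 ± 5.13 CPM in WT libraries (SD, n = 3 each), where CPM are counts scaled to a common library total, so the amount of SMAD4 transcript and the substitution cannot be told apart. The 9 ductal and epithelial markers summed to between 4102 and 4411 CPM in R272K libraries and between 3283 and 4019 CPM in WT libraries, most of it the keratin KRT8. Of the 8 tested, 1 was called, the cell adhesion gene CDH1, at 6.47 ± 0.313 CPM in R272K and 2.59 ± 0.490 CPM in WT cells (SD, n = 3 each). Its log2 fold change was 1.33 (adjusted p = 0.00174), and of the 8 fold changes 5 were positive and 3 negative. The 9 acinar markers together reached at most 1.05 CPM in an R272K library and 0.456 CPM in a WT library (led by CTRB1), the 7 islet markers at most 0.525 and 0.393 CPM (led by PCSK1), the 8 fibroblast markers 8.47 and 8.91 CPM (mostly RGS5), the 7 endothelial markers 6.56 and 7.99 CPM (mostly KDR), and the 8 leukocyte markers 10.4 and 9.63 CPM (mostly ITGAM). WT replicate 1 stood apart from the rest, at -31.3 on the first principal component against -9.56 to 15.6 for the other libraries. Where leaving it out changed a call among the 8 genes, both values are given.

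None of the 7 tested genes of the system passed the threshold (adjusted p below 0.05, edgeR's quasi-likelihood test), where 1.21% of all 15911 genes tested did. SERPINB2 was too low to be tested. PLAU was higher and PLAUR lower in every R272K library than in any WT library, and these were also the 2 genes with an unadjusted p under 0.05, against 14.3% of all genes. In CPM, groups that did not overlap were seen for 21.4% of all genes tested, so 2 of 7 is close to that background. DESeq2 called 1 of the 7, PLAU, against 1.75% of all genes, and limma-voom called 0, against 1.23%. The median log2 fold change (R272K over WT) was 0.06 for the 7 genes and -0.0011 for all genes tested.

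**Figure D1:**
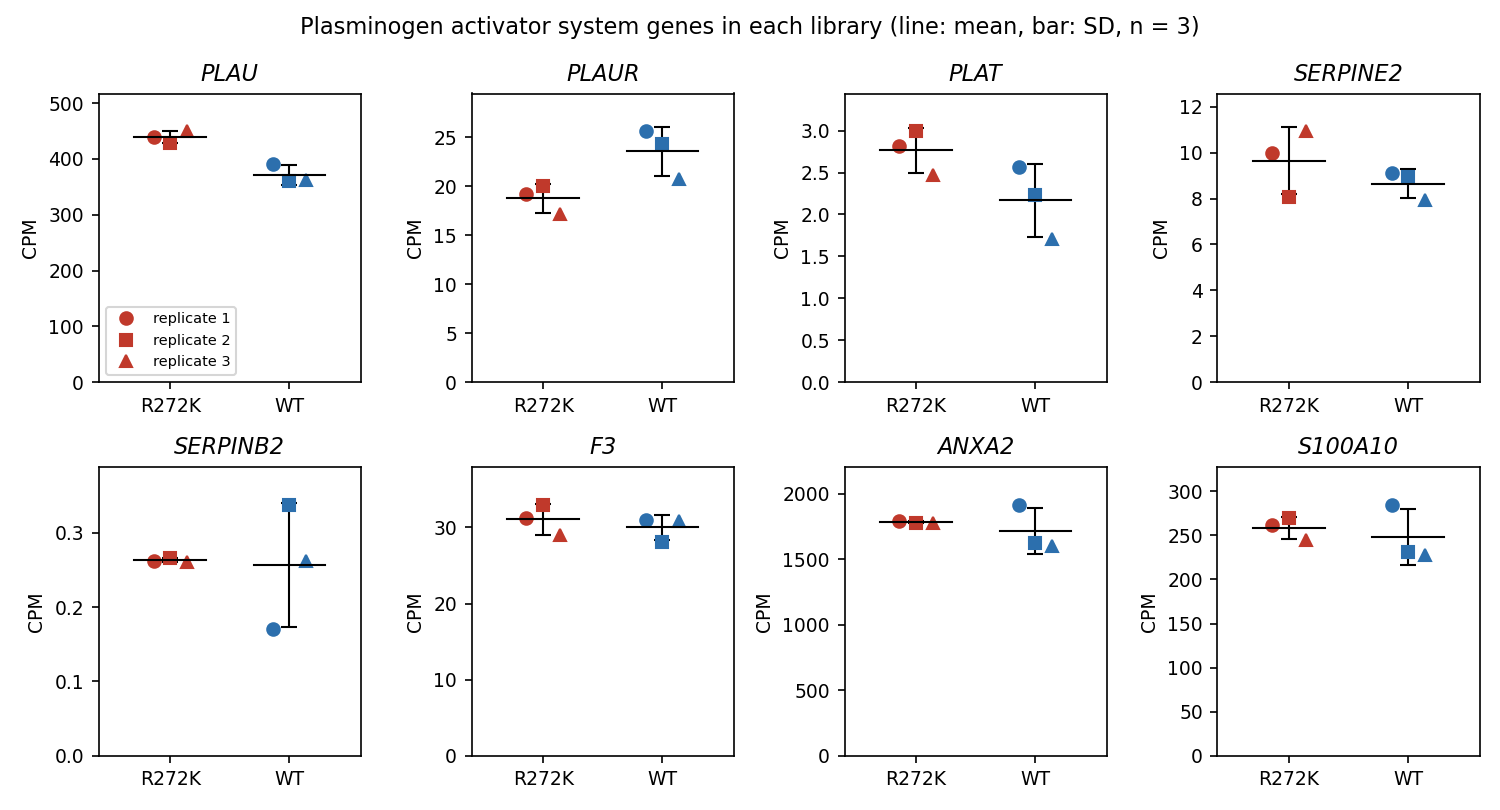
CPM of each of the 8 genes in the 3 R272K (red) and 3 WT (blue) libraries, each axis starting at 0, with the mean as a line and the SD as a bar. The R272K points of PLAU all lie above its WT points, those of PLAUR all lie below, and WT replicate 1 is the highest library for ANXA2 and S100A10.

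Per unit of transcript length the system spanned from very abundant to barely detected transcripts. On the deposited TPM scale, which divides by length, ANXA2 was highest, with 1591 ± 15.9 TPM in R272K and 1506 ± 73.1 TPM in WT cells (SD, n = 3 each), rank 54 of 36623 symbols with any reads. S100A10 followed at 1215 ± 44.6 and 1144 ± 85.9 TPM, and PLAU at 520.0 ± 18.5 and 434 ± 6.33 TPM, rank 270. A wide step separated these from F3, at 42.5 ± 2.30 TPM in R272K and 40.6 ± 2.54 TPM in WT cells, and from PLAUR, at 36.7 ± 2.46 and 45.3 ± 3.16 TPM. SERPINE2 (5.08 ± 0.825 and 4.49 ± 0.216 TPM) and PLAT (2.51 ± 0.213 and 1.93 ± 0.303 TPM) were low, and SERPINB2 was lowest, at 0.384 TPM in R272K and 0.374 TPM in WT cells. Urokinase was thus the main activator transcript. In both groups the libraries of neighbouring genes in this order did not overlap, with 1 exception. F3 lay above PLAUR in every R272K library, whereas in WT cells PLAUR had the higher mean and the libraries of these genes overlapped.

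**Figure D2:**
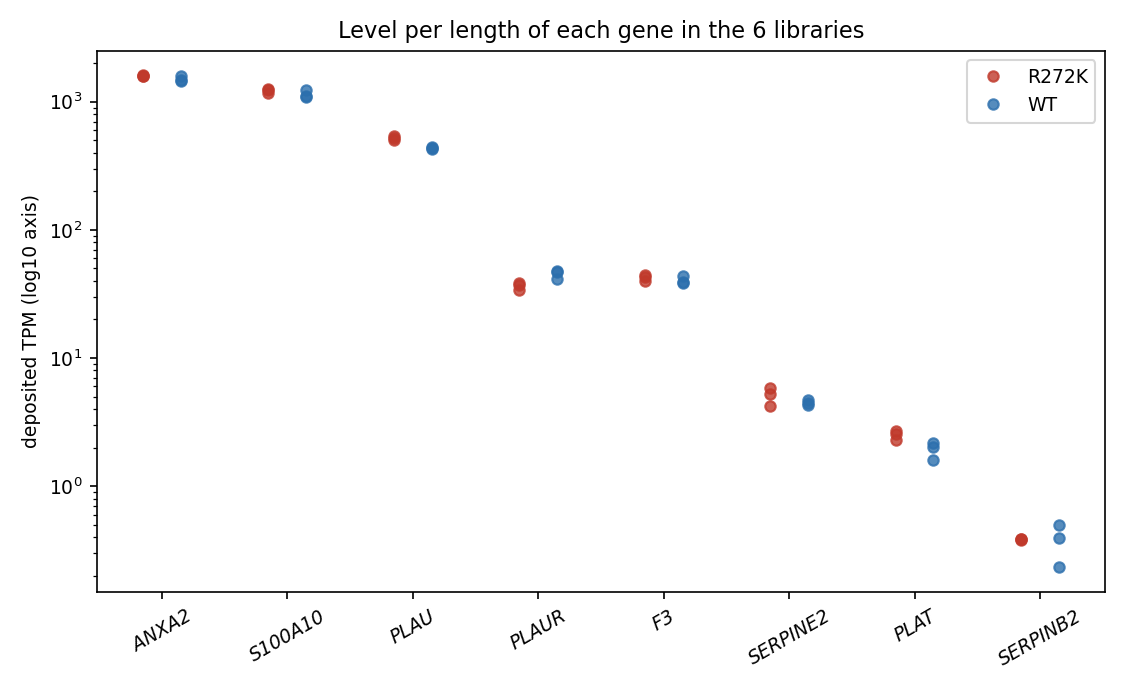
Deposited TPM of the 8 genes on a log10 axis, ordered by their WT mean, with 1 point for each R272K (red) and WT (blue) library. ANXA2, S100A10 and PLAU lie at 429 TPM or more, F3 and PLAUR between 33.9 and 47.7 TPM, and SERPINB2 below 0.5 TPM.

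PLAU (ENSG00000122861, chromosome 10, 73909177 to 73917496, GRCh38) encodes urokinase, which is secreted as a single-chain proenzyme and carries the receptor-binding growth factor domain at its amino end. Its level was 438, 428 and 449.7 CPM in the R272K libraries and 391.7, 360.4 and 362 CPM in the WT libraries. The groups did not overlap, and the lowest R272K library exceeded the highest WT library, replicate 1. The log2 fold change was 0.24 (SE 0.060, 95% interval 0.11 to 0.37, adjusted p = 0.0841), or 1.18-fold, with the interval not corrected for the number of genes. Its counts of 5331 to 6903 per library carry a counting error of 1.20% to 1.37%. Without WT replicate 1 the log2 fold change was 0.28 (SE 0.038, adjusted p = 4.82e-06), a call that rests on WT replicates 2 and 3 alone. A smooth trend on gene length in each library's deviations from the gene means was also removed. The log2 fold change was then 0.27 (SE 0.047, adjusted p = 0.00149, where 3.89% of all genes were called). With no filter on low counts it was 0.24 (adjusted p = 0.0470, where 1.29% were called), and with DESeq2 0.24 (adjusted p = 0.0316). When any other library was left out the adjusted p lay between 0.120 and 0.363. The gene C10orf55 overlaps PLAU on the opposite strand over 7528 bases. It had 64 counts in the R272K and 54 in the WT libraries together, and without a statement on strand use in counting, reads of these genes cannot be told apart.

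PLAUR (ENSG00000011422, chromosome 19, 43646095 to 43670547, minus strand) encodes the urokinase receptor, a three-domain protein of the Ly6 family that is anchored in the membrane by a lipid. Its level was 19.2, 19.96 and 17.1 CPM in the R272K libraries and 25.6, 24.3 and 20.8 CPM in the WT libraries. The groups did not overlap, although R272K replicate 2 and WT replicate 3 lay close together. The log2 fold change was -0.33 (SE 0.103, 95% interval -0.55 to -0.11, adjusted p = 0.159), or 0.795 of the WT level. With 263 to 449 counts per library the counting error was 4.72% to 6.17%. The estimate was -0.26 without WT replicate 1 (adjusted p = 0.133) and -0.42 without WT replicate 3 (adjusted p = 0.0563), and it was called in neither fit.

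Ligand and receptor thus lay on opposite sides of their WT levels. The ratio of PLAU to PLAUR on the TPM scale is free of library scaling, and it was chosen after the values were seen. It was 13.9, 12.99 and 15.9 in the R272K libraries and 9.27, 8.995 and 10.6 in the WT libraries. Every R272K ratio exceeded every WT ratio, and the mean log2 ratio was 3.83 ± 0.149 in R272K and 3.26 ± 0.123 in WT cells (SD, n = 3 each), a difference of 0.57. Since PLAU was higher and PLAUR lower in every R272K library, this separation followed from the values already given. The permutation p-value computed for this ratio was fixed by the same separation, so the ratio is given as a description only. Without WT replicate 1 the difference was 0.54. The ratio of PLAU to SERPINE2, one of its inhibitors, was 99.0, 119.8 and 92.6 in the R272K libraries and 96.7, 91.0 and 102.9 in the WT libraries. These groups overlapped, and the mean log2 ratio differed by 0.09 (two-sided exact permutation test, p = 0.60, or 0.90 after Benjamini-Hochberg adjustment over the 3 ratios computed, where 3 against 3 libraries cannot go below 0.10).

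**Figure D3:**
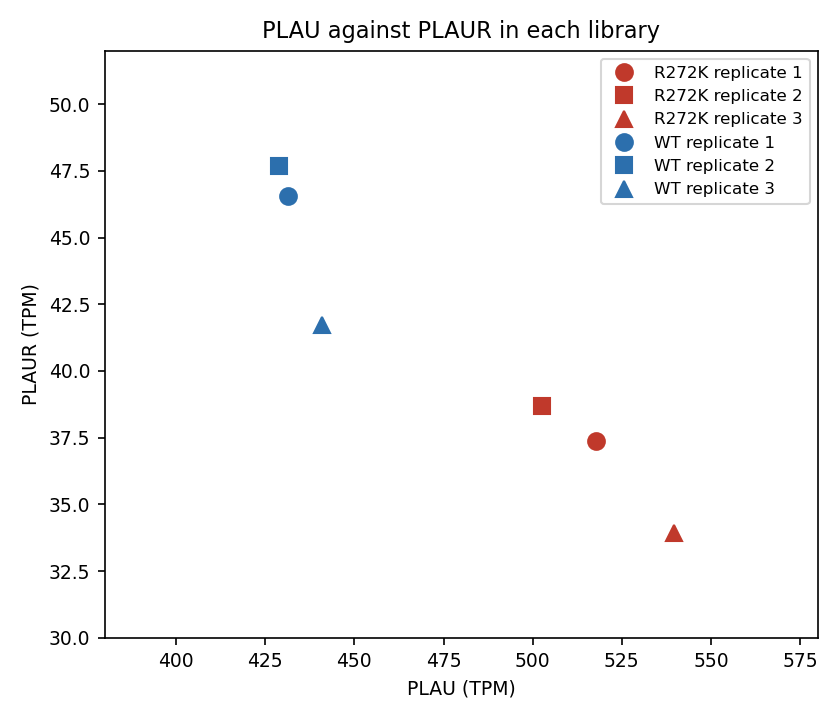
Deposited TPM of PLAU (x axis) and PLAUR (y axis) in each library, with R272K libraries in red and WT libraries in blue; neither axis starts at 0. The R272K libraries lie to the lower right (PLAU 503 to 539.5 TPM, PLAUR 33.9 to 38.7 TPM) and the WT libraries to the upper left (PLAU 429 to 441 TPM, PLAUR 41.7 to 47.7 TPM).

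Because SMAD proteins bind short DNA elements, the sequences just before the transcription starts of these genes are shown, from RefSeq on GRCh38.p14, as 250 bases ending at the base before the start. 3 motifs were searched on both strands. The first was CAGAC, which reads GTCTG on the opposite strand. The second was GGCGC, which reads GCGCC there, and both are known as elements that SMAD proteins bind. The last was TGANTCA, the AP-1 element. Capitals mark every match, and overlapping GGCGC matches on both strands appear as 1 run of 6 capitals.
PLAU, upstream start, chr10:73910360-73910609, plus strand: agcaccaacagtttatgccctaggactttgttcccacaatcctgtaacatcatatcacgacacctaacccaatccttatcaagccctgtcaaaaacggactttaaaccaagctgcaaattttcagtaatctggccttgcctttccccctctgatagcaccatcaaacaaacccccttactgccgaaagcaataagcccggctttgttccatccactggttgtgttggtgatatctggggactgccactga
PLAU, downstream start, chr10:73910882-73911131, plus strand: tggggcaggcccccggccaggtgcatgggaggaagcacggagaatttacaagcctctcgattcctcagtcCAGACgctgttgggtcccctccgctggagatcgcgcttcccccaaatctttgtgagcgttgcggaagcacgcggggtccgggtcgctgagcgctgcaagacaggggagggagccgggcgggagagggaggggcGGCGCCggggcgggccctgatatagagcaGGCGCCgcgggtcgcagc
PLAUR, chr19:43670170-43670419, minus strand: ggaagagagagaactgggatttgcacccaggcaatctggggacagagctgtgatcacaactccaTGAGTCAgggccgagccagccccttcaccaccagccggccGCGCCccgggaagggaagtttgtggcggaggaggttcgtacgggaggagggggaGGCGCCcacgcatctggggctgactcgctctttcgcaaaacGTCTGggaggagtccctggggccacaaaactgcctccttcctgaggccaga
The upstream PLAU window held none of these letters and was 46.8% G or C. The downstream PLAU window, at 68.8% G or C, held 1 CAGAC match starting 180 bases before the start and 4 GGCGC matches. The PLAUR window held 1 CAGAC match starting 51 bases before the start, 3 GGCGC matches and 1 TGANTCA match starting 186 bases before the start. CAGAC and GGCGC matches are common and TGANTCA matches less so: among 35116 promoter windows of this length 38.0% held CAGAC, 44.5% GGCGC and 6.57% TGANTCA. The matches describe these letters only and were not tied to binding. Among the other genes, SERPINB2 and S100A10 each held 1 CAGAC match, F3 had 2 TGANTCA matches and ANXA2 and SERPINB2 had 1 each. GGCGC matches numbered 5 in F3, 4 in S100A10, 3 in ANXA2 and 2 in 1 of the 2 SERPINE2 windows. The window of PLAT was not analysed here.

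PLAT (ENSG00000104368, chromosome 8, 42174718 to 42207709) encodes tissue-type plasminogen activator, the fibrin-bound activator best known from blood vessels. Its level was 2.82, 2.99 and 2.475 CPM in the R272K libraries and 2.57, 2.23 and 1.70 CPM in the WT libraries. In CPM the groups overlapped, since WT replicate 1 exceeded R272K replicate 3. On the TPM scale these libraries stood at 2.17 and 2.28 TPM, and the groups did not overlap. The share of all genes without overlap on the TPM scale was not computed. The log2 fold change was 0.34 with a wide 95% interval of -0.14 to 0.83 (adjusted p = 0.522). At 26 to 45 counts per library, the counting error was 14.9% to 19.6%. The estimate was 0.49 without WT replicate 1 and 0.20 without WT replicate 3, and was called in neither fit.

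SERPINE2 (ENSG00000135919, chromosome 2, 223975045 to 224039318) encodes protease nexin-1, a serpin that inhibits thrombin, urokinase and plasmin and is held on the cell surface by heparan sulfate. Its level was 9.98, 8.05 and 10.9 CPM in the R272K libraries and 9.12, 8.92 and 7.93 CPM in the WT libraries. The groups overlapped, and the spread among the R272K libraries was wider than the difference of the means. The log2 fold change was 0.16 (95% interval -0.14 to 0.45, adjusted p = 0.645). It was 0.27 without R272K replicate 2, 0.06 without R272K replicate 3 and 0.095 without WT replicate 3, and was called in none of these fits. SERPINB2 (ENSG00000197632, chromosome 18, 63871692 to 63903888) encodes plasminogen activator inhibitor type 2, a largely intracellular serpin. It had 4, 4 and 4 counts in the R272K libraries and 3, 5 and 4 in the WT libraries. Each group summed to 12 counts, with an exact Poisson 95% interval of 6.20 to 21.0 that covers counting error only.

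ANXA2 (ENSG00000182718, chromosome 15, 60347134 to 60402883) encodes annexin A2, a calcium-dependent membrane-binding protein. S100A10 (ENSG00000197747, chromosome 1, 151982915 to 151993859), also called p11, encodes its partner, and a pair of each forms a tetramer on the cell surface that binds plasminogen. ANXA2 measured 1792, 1779 and 1775 CPM in the R272K libraries and 1916, 1625 and 1604 CPM in the WT libraries. S100A10 measured 262, 269 and 245 CPM in the R272K libraries and 285, 231.5 and 228 CPM in the WT libraries. For both genes WT replicate 1 had the highest CPM of all 6 libraries and WT replicates 2 and 3 the lowest. On the TPM scale WT replicate 1 lay within the range of the R272K libraries, at 1590 TPM for ANXA2 and 1243 TPM for S100A10. The log2 fold change was 0.06 for ANXA2 (SE 0.071, 95% interval -0.10 to 0.21, adjusted p = 0.774) and 0.06 for S100A10 (SE 0.084, 95% interval -0.12 to 0.24, adjusted p = 0.790). Without WT replicate 1 both were called higher, at 0.14 for ANXA2 (SE 0.032, adjusted p = 0.00451) and 0.17 for S100A10 (SE 0.044, adjusted p = 0.0130), in a fit that called 5.36% of all genes and 3 of these 7, PLAU included, all higher, as were 2.94% of all genes. With the length trend smoothed out, S100A10 stood at 0.13 (adjusted p = 0.182) and ANXA2 at 0.06 (adjusted p = 0.589).

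The ratio of the partners lay between 1.26 and 1.38 in all libraries, and it was not compared with the ratios of other gene pairs. ANXA2 exceeded S100A10 on the TPM scale by 1.30, 1.26 and 1.38 times in the R272K libraries and by 1.28, 1.335 and 1.34 times in the WT libraries. The mean log2 ratio differed by -0.01 between R272K and WT cells, and the groups overlapped (two-sided exact permutation test, p = 1.0). ANXA2 has near-identical processed copies, and how the authors' counting treated reads that match more than 1 of them is not stated. ANXA2P2 held 4.73% to 4.84% of the ANXA2 and copy counts in R272K libraries and 4.64% to 4.79% in WT libraries, ANXA2P1 had at most 14 counts in a library, and ANXA2P3 had 0. Adding the copies to ANXA2 left its log2 fold change at 0.06 (adjusted p = 0.768). Reads that the counting left out would not be in this sum.

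F3 (ENSG00000117525, chromosome 1, 94529173 to 94541759) encodes tissue factor, the membrane receptor for factor VII that starts clotting and so supplies the fibrin that plasmin removes. Its level was 31.2, 33.0 and 29.0 CPM in the R272K libraries and 31.0, 28.1 and 30.9 CPM in the WT libraries. The groups overlapped, with an R272K library the highest and a WT library the lowest. The log2 fold change was 0.05 (SE 0.083, adjusted p = 0.831), with a 95% interval of -0.13 to 0.23, which spans folds from 0.913 to 1.17.

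**Figure D4:**
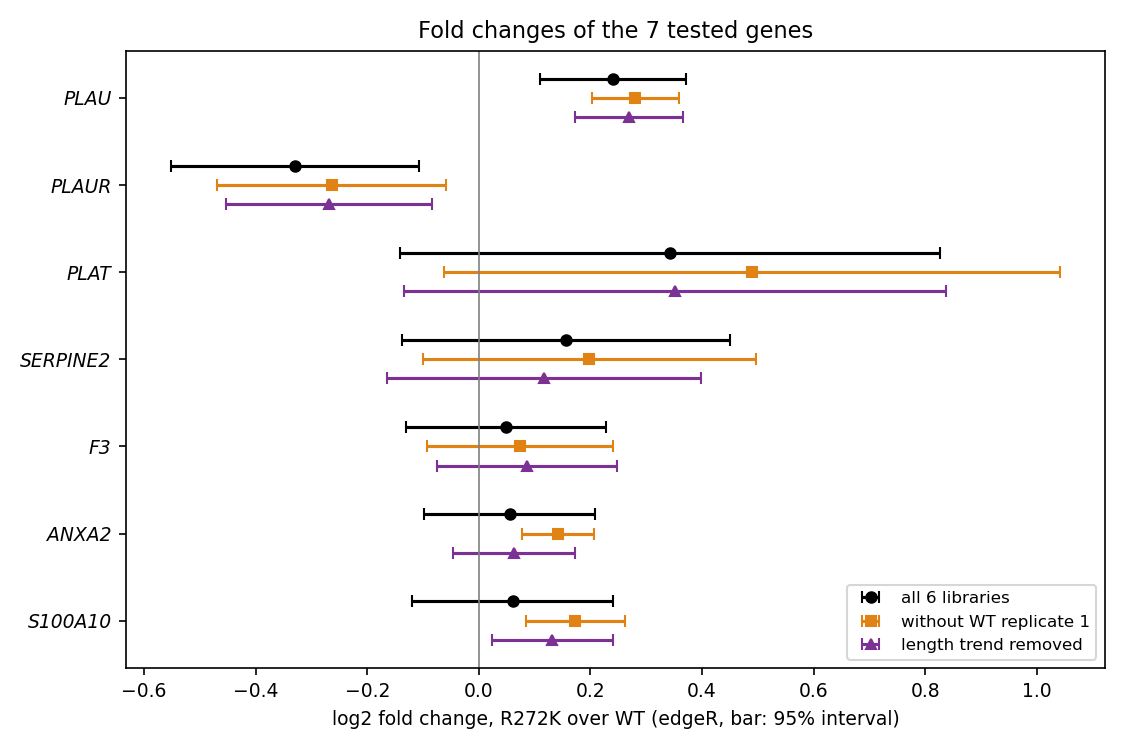
Log2 fold change (R272K over WT, edgeR) of the 7 tested genes with 95% intervals, on all 6 libraries (black), without WT replicate 1 (orange) and with each library's length trend removed (purple). PLAU lies above 0 and PLAUR below 0 in all 3 fits, PLAT has the widest interval, and ANXA2 and S100A10 move away from 0 when WT replicate 1 is left out.

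Of the wider system, 106 of 150 listed genes were tested, and 3 rose, 2 fell and 101 were not called, a share of 4.72% called against 1.21% of all genes. The lists were chosen with earlier results of these data known, so this share cannot tell whether the system as a whole changed. TNFRSF11B and MMP1 were called whichever library was left out. FN1 and EGR1 were not called without R272K replicate 1 or 3, and SERPINA3 was called only when WT replicate 1 or 3 was the library left out. The number called was 23 without WT replicate 1 and 8 without WT replicate 3. Plasminogen itself (PLG) was barely detected, at 0.196 CPM in R272K and 0.101 CPM in WT libraries. Among 6 tested genes listed as other activation components and inhibitors, 1 rose and 5 were not called. The 1 was TNFRSF11B, which encodes osteoprotegerin, a secreted decoy receptor rather than an activator or inhibitor of plasminogen. It measured 343 ± 5.79 CPM in R272K and 247 ± 6.91 CPM in WT cells, and its log2 fold change was 0.47 (SD, n = 3 each, adjusted p = 0.000805). SERPINI1, or neuroserpin, an inhibitor of tissue-type activator, stood at 0.53 (adjusted p = 0.0817) and SERPINB8, an intracellular serpin, at -0.40 (adjusted p = 0.0964), neither called. The median log2 fold change of the 6 was 0.29, and 3 of them had an unadjusted p under 0.05, against 14.3% of all genes.

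Of 10 plasminogen-binding proteins, 0 were called by edgeR and 1 (KRT8) had an unadjusted p under 0.05, with a median log2 fold change of 0.07. KRT8, a keratin that can bind plasminogen on carcinoma cells, stood at 0.32 (adjusted p = 0.0661), the nuclear protein gene HMGB1 at 0.12 (adjusted p = 0.436) and the keratin KRT18 at 0.11 (adjusted p = 0.583). Of 17 tested partners and clearance receptors of the urokinase receptor, 0 were called and 9 had an unadjusted p under 0.05, against 14.3% of all genes. The R272K libraries lay above the WT libraries without overlap for 9 of the 17, where 10.9% of all genes did so, and the list's median was 0.18. The integrin subunit ITGAV stood at 632 ± 5.37 CPM in R272K and 474 ± 78.2 CPM in WT cells (0.41, adjusted p = 0.0570), the caveolar protein CAV1 at 0.20 (adjusted p = 0.145) and the sorting receptor SORT1 at 0.27 (adjusted p = 0.151). ITGAV stood at 387 CPM in WT replicate 1 and at 497 and 539 CPM in WT replicates 2 and 3. Without WT replicate 1 the list's median was 0.12, and 8 of the 17 reached an unadjusted p under 0.05. The share of all genes reaching that level in this fit was not computed. The fit called 5 of the 17 higher, against 2.94% of all genes. Those 5 included ITGAV at 0.29, CAV1 at 0.23 and SORT1 at 0.17. Without WT replicate 3 only ITGAV was called, and when any other library was left out none of the 17 was.

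The tissue factor pathway gave 0 calls among 12 tested genes, 3 with an unadjusted p under 0.05 and a median of 0.01. Nearest were the clotting factor gene F8 (0.27, adjusted p = 0.184), thrombomodulin THBD, which turns thrombin to an anticoagulant role (-0.60, adjusted p = 0.212), and PROCR, the protein C receptor (-0.24, adjusted p = 0.252). Other annexins and S100 partners gave 0 calls among 16, 2 with an unadjusted p under 0.05 and a median of -0.04, with ANXA6 at 0.20 (adjusted p = 0.249), the membrane repair gene DYSF at -0.66 (adjusted p = 0.339) and S100A11 at -0.15 (adjusted p = 0.360). ANXA2R, listed with the ANXA2 copies, stood at -0.19 (adjusted p = 0.683) and ANXA2P2 at 0.08 (adjusted p = 0.679). Among 9 other serpins tested, only SERPINA3, an acute-phase inhibitor, was called. It stood at 3.27 ± 0.594 CPM in R272K and 1.40 ± 0.148 CPM in WT cells (1.21, adjusted p = 0.0244). The median of the serpins was 0.10, and 4 of the 9 had an unadjusted p under 0.05, against 14.3% of all genes. SERPINI1 and SERPINB8, named above, are also in this list.

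Among 19 tested substrates of plasmin and of the activators, 1 rose, 1 fell and the median was 0.11. An unadjusted p under 0.05 was reached by 8 of the 19, against 14.3% of all genes. The lists were chosen with earlier results known, so such shares are descriptions only. The collagenase gene MMP1, whose zymogen plasmin can activate, fell to 24.2 ± 1.06 CPM in R272K cells, against 55.6 ± 6.36 CPM in WT cells (-1.20, adjusted p = 9.72e-06). Fibronectin FN1 rose to 91.1 ± 4.24 CPM in R272K cells, against 60.9 ± 7.95 CPM in WT cells (0.58, adjusted p = 0.0054). PDGFD, a growth factor that urokinase can cleave to its active form, stood at 0.84 and was not called (adjusted p = 0.112). Of 19 factors linked to transcription or mRNA stability of these genes, 1 was lower and the median was -0.04. Among these factors 6 had an unadjusted p under 0.05, against the same 14.3%. The transcription factor gene EGR1 fell to 21.5 ± 1.67 CPM in R272K cells, against 32.6 ± 2.22 CPM in WT cells (-0.60, adjusted p = 0.00469). CEBPB (-0.33, adjusted p = 0.0515) and the AP-1 subunit gene FOSL1 (-0.27, adjusted p = 0.0599) were not called.

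**Figure D5:**
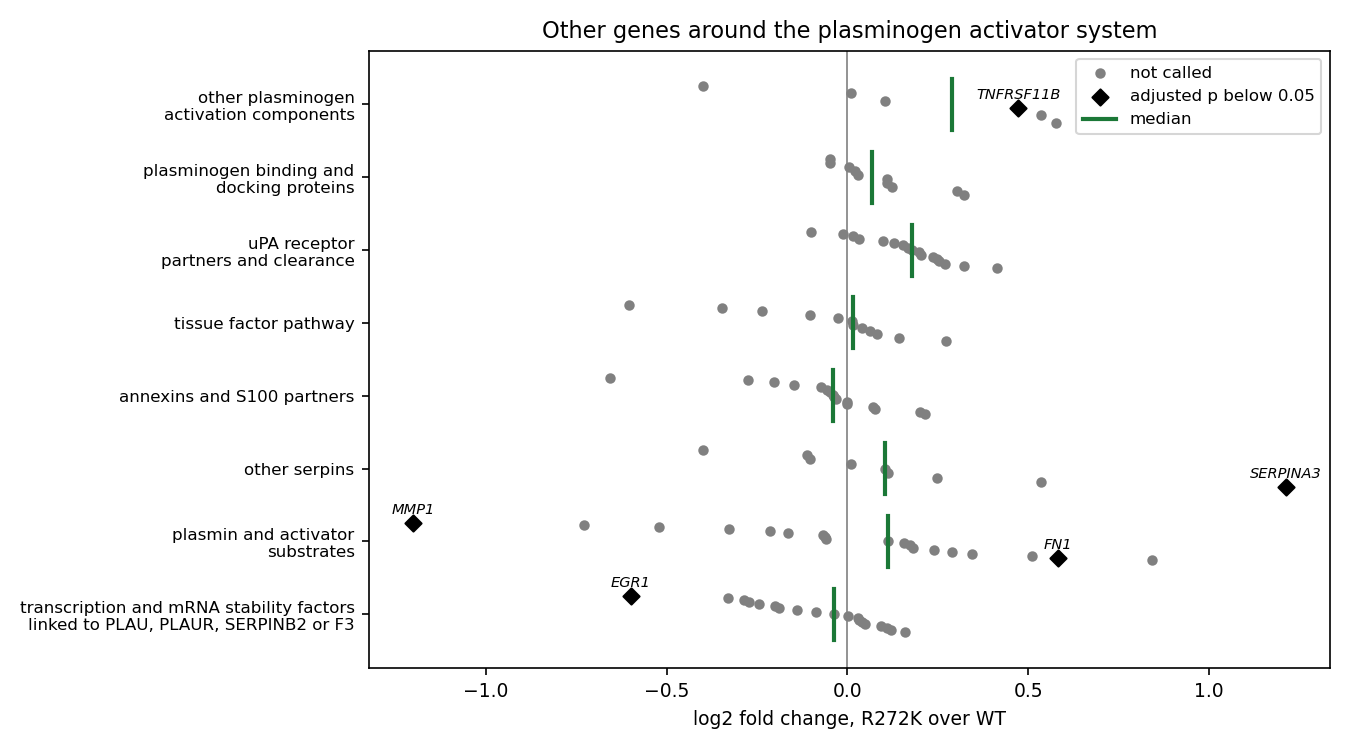
Log2 fold change (R272K over WT, edgeR) of every tested gene in 8 lists around the system, 1 point a gene, with called genes as black diamonds and each list's median as a green line. TNFRSF11B, SERPINA3 and FN1 lie to the right, MMP1 and EGR1 to the left, and the points for partners of the urokinase receptor lie mostly above 0.

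Likeness of pattern was measured as the root mean square difference of log2 CPM, centred on each gene's mean, over the 6 libraries, among tested genes with a mean of at least 10 CPM. FBLN1, a matrix protein gene, lay nearest to PLAU (0.016), followed by the lipoprotein receptor gene SCARB1 (0.020). PCGF1 (0.037) and MRPL47 (0.039) lay nearest to PLAUR, INAFM2 (0.069) and SDC2 (0.082) to PLAT, and CCDC92 (0.057) and REEP4 (0.059) to SERPINE2. MAP9 and SRSF7 (both 0.027) lay nearest to F3, COPS7A (0.016) and PDIA3 (0.018) to ANXA2, and SELENOW (0.026) and CHMP2A (0.027) to S100A10. None of these 14 genes was called. Each was picked for its likeness over the same 6 libraries, so it shares the group difference of its neighbour by selection. These matches are therefore a description only.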

How the data were processed

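Gene expression was measured by sequencing mRNA selected by its poly(A) tail, per the labels' protocols. The submitters' processing notes name fastp 0.23.0, HISAT2 2.1.0, SAMtools, HTSeq 0.10.0 and GRCh38; no source states their settings. Raw read counts per symbol were deposited by the authors, who also deposited TPM, a length-scaled signal made from the same counts (largest relative deviation 3.14e-14). Repeated lines were used once (62710 lines, 60835 symbols).

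Genes were filtered by edgeR's expression filter (minimum count 10, minimum total 15), scaled by TMM and compared by its quasi-likelihood test (robust option, two-sided) with the group as the only term and Benjamini-Hochberg adjustment over all genes tested. SE is the log2 fold change divided by the square root of F. The test was also run on simulated counts, with outcome not given here. Each gene had the same spread in every library there, so that run cannot tell how the test behaves with a library like WT replicate 1. All replicate pairs differed beyond sampling noise. The chi-square over degrees of freedom was 11.33 and 15.6 for the pairs with WT replicate 1 and 1.835 to 2.925 for the other pairs. Intervals cover counting error or replicate spread only. Alternatives were other scalings, filters and tools, the replicate block, each library left out, log2(TPM + 1) or log2(TPM + 0.1), and removal of a length trend. For that trend, each library's deviation in log2 CPM from the gene's mean was fitted on log length by lowess (span 0.3). The fit served as offset, and the relative length came from the ratio of counts to TPM.

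The 8 genes and the lists were chosen with earlier results of these data known. Named genes are the 8, SMAD4, up to 3 per list by smallest p, ANXA2 copies, the top gene of each other cell type's markers, and the 2 genes most like each tested member. Genes named outside this rule (PLG, C10orf55, CDH1, ITGB1, ITGB5, LAMB3, THBS1) were picked with their values known. Some genes of the system are not reported here. Tables and figures were made in Python 3.11.15 with scipy 1.17.1, pandas 2.3.3, matplotlib 3.10.9 and numpy 2.4.6. The models ran in R 4.3.3 with DESeq2 1.42.0, edgeR 4.0.16 and limma 3.58.1.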

Additional observations from a re-analysis of the deposited data

How the results depend on the processing

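Across the alternatives, the 7 tested genes gave 127 further fold changes, of which 120 kept direction and stayed uncalled, 6 became called and 1 changed sign. PLAU became called with DESeq2 (0.24, adjusted p = 0.0316), with no filter (0.24, adjusted p = 0.0470), with the length trend removed and without WT replicate 1. ANXA2 (0.14) and S100A10 (0.1727) became called without WT replicate 1, and S100A10 stood at -0.0003 without WT replicate 3. The number of the 7 called was 1 with DESeq2, no filter or the length trend removed, and 0 to 3 when 1 library was left out (3 without WT replicate 1, 0 otherwise). PLAU ranged from 0.22 to 0.28 and PLAUR from -0.42 to -0.26 over all alternatives.

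Over all genes 193 were called, against 474 with no filter, 619 with the length trend removed, 61 and 55 by limma on log2(TPM + 1) and log2(TPM + 0.1), 37 on log2(TPM + 1) with no filter, and 55 to 875 with 1 library left out (875 without WT replicate 1). Of the other listed genes 5 were called, against 11 with no filter, 8 with the replicate number as a block, 15 with the length trend removed, 9 with DESeq2, 3 and 2 by limma on log2(TPM + 1) and log2(TPM + 0.1), 2 on log2(TPM + 1) with no filter, and 2 to 23 with 1 library left out. The cause of these shifts was not tested. Deviations from the group means correlated at -0.06, -0.01 and -0.01 between same-numbered libraries, and at -0.06 to 0.07 between differently numbered ones. With 3 libraries a group this cannot decide whether the numbers pair libraries, which the labels do not state. With the replicate block 262 genes and 0 of the 7 were called. With 1 library left out, F3 ranged from 0.0008 to 0.10 and ANXA2 from 0.01 to 0.14. Counting error was largest for SERPINB2 and PLAT.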

Other observations

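Leaving out WT replicate 1, which leaves 2 WT libraries, gave 23 calls among 109 other listed genes (15 higher, 8 lower), a share of 21.1%, where that fit called 5.36% of all genes. The lists were chosen with earlier results of these data known, so that share is a description only. Higher were the keratins KRT8 (0.42, adjusted p = 4.60e-11) and KRT18 (0.21, adjusted p = 0.000919), and ITGAV (0.29, adjusted p = 2.84e-06), ITGB1 (0.12, adjusted p = 0.0188) and ITGB5 (0.14, adjusted p = 0.0236), integrin subunits that form receptors for matrix. CAV1 (0.23, adjusted p = 0.000238) and the inhibitor gene SERPINI1 (0.54, adjusted p = 0.0371) were higher as well. Lower were LAMB3, a laminin chain gene (-0.61, adjusted p = 0.00913), THBS1, which encodes thrombospondin (-0.15, adjusted p = 0.0477), SERPINB8 (-0.42, adjusted p = 0.0310), FOSL1 (-0.25, adjusted p = 0.000469) and CEBPB (-0.27, adjusted p = 0.00121). These genes were chosen after their values were seen, and with all 6 libraries none of them was called.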
